A study of Mus musculus with 72 samples.

Results

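The comparison described here sets 12 mice with the P522R variant of phospholipase C gamma 2 against 12 mice with the M28L variant, of 36 mice in all. The 24 mice were chosen by their labels alone, as P522R_5xFAD or M28L_5xFAD, and each variant had 6 females and 6 males. All mice were 7.5 months old, and total RNA came from brain cortex, 1 sample per mouse. Every mouse, including the 12 5xFAD mice without either variant, carried the 5xFAD transgenes, and no mouse without these transgenes is compared. These transgenes express human proteins with familial Alzheimer mutations, amyloid precursor protein among them, in neurons, under the Thy1 promoter. The sources used here do not say whether a variant was carried on 1 or on both chromosomes. Transcripts of 1266 named genes were counted on 2 NanoString panels, in which each RNA is caught by a barcoded probe and counted without amplification. The value of a gene in a mouse, called its level below, is a log2 value. Differences are P522R minus M28L on that scale with sex as a covariate, so a difference of 1 is a doubling.

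Phospholipase C gamma 2 cleaves a membrane phosphoinositide into inositol trisphosphate, which releases calcium, and diacylglycerol, which activates protein kinase C. In the brain it is found mainly in microglia, where it acts downstream of TREM2 and its signalling partner TYROBP. TREM2 lets microglia gather at amyloid plaques and take on the disease-associated state, in which genes of phagocytosis, lipid handling and the lysosome are raised. In people, P522R is associated with a lower and M28L with a higher risk of Alzheimer's disease. The comparison asks how cortex of plaque-bearing mice differs between the protective and the risk variant. In whole cortex, fewer cells of a type and less RNA per cell cannot be told apart.

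The 24 mice did not differ in variant alone. The counts behind the values, recovered as described under the processing, split the genes into a set of 757 and a set of 509 that had been scaled separately. On the larger set the mean total was 1088008 ± 87241 counts (SD, n = 6) in M28L females, against 1738930 ± 229911 in P522R females, 1669092 ± 50537 in M28L males and 1702509 ± 73286 in P522R males. The 2 sets also moved apart. The median difference was 0.17 over the larger set and -0.05 over the smaller set. Values after centring each mouse on its median within each set (set-centred values) are therefore given beside some of the genes below. The other genes are given on the deposited scale alone. Over well-measured genes the variants parted along the leading principal component (36.9% of the variance), where P522R mice lay at -10.8 to -0.97 and M28L mice at 3.10 to 15.2. The sexes parted along the next (35.9%). The neuronal gene Snap25, at 13.60 to 15.03 in the 24 mice, was bright in every sample of the labelled cortex. No run is named in the labels, and the variants cannot be told apart from runs they may have been measured in. A pair of M28L females share the animal number 14, and 791 in place of 795 genes were called when their mean stood for both.

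Of the 1266 genes, 795 differed between the variants at an adjusted p of 0.05 with limma (called genes; 62.8%). P522R mice were higher in 488 genes (38.5%) and lower in 307 (24.2%), and the median difference over all genes was 0.10. More than 1.5-fold apart were 124 higher genes (9.79%) and 83 lower genes (6.56%). A stricter count took genes that were called over both sexes and within each sex alone in the same direction. It held 397 genes (31.4%), 218 higher (17.2%) and 179 lower (14.1%). In the larger gene set (62.4% called) 347 of 757 genes were higher (45.8%) and 125 lower (16.5%), and in the smaller set (63.5% called) 141 of 509 were higher (27.7%) and 182 lower (35.8%). After set centring 799 genes were called (63.1%), 498 of them higher (39.3%). Within both sexes the 6 mice of each variant did not overlap in 154 genes (12.2%). Over all 24 mice the lowest P522R mouse lay above the highest M28L mouse in 13 genes (1.03%), and the reverse held for 7 genes (0.553%). Centred on 3 housekeeping genes, 698 genes were called with 203 higher, against 447 higher of 792 with each mouse centred on its median. The balance of higher and lower genes thus depends on the scale. The 3 housekeeping genes, Tbp, Gusb and Pgk1, were themselves at 0.17, 0.24 and 0.20 on the deposited scale, and Pgk1 was called. Of these 3, 2 lie in the smaller set, and Gusb is also in the lysosome list below. Calls of single genes below are read against these backgrounds.

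Genes that microglia raise around plaques were among the widest differences, and most were higher in P522R mice. Of 34 measured members of the disease-associated microglia list, 23 were higher in P522R mice, 4 were lower and 7 were not called. In both sexes 15 were higher and 3 lower, 44.1% and 8.8% of the list beside 17.2% and 14.1% of all genes. The list's median difference was 0.40, against 0.10 over all genes. With set-centred values it was 0.33 with 20 higher and 5 lower, and on housekeeping genes it was 0.20 where the median of all genes was -0.10. The list is written from knowledge of this state and was chosen with results of these data known.

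Itgax, which encodes the integrin CD11c, was 4.74-fold higher in P522R mice. Its level ran from 3.69 through a median of 4.48 to 5.86 in the 12 M28L mice and from 5.30 through 6.96 to 7.93 in the 12 P522R mice. Only P522R males reached into the M28L range, and the females of the variants did not overlap. Few counts stand behind the M28L values, 9 to 47 per mouse, against 39 to 266 in P522R mice, which limits the precision of the fold. The difference was 2.25 ± 0.24 (SE; 95% interval 1.74 to 2.75, adjusted p = 1.9e-08 with limma), at 2.3 in females and 2.2 in males. The 5xFAD mice lay between the variants with a mean of 5.99, above 4.6 in M28L mice and below 6.84 in P522R mice.

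Gpnmb, a transmembrane glycoprotein of phagocytes loaded with lipid, separated the variants completely. M28L mice ran from 5.49 through 6.10 to 6.51 and P522R mice from 7.02 through 8.17 to 9.85, with 5xFAD mice at a mean of 7.41. The difference was 2.1 ± 0.20 (SE; 95% interval 1.71 to 2.53, adjusted p = 2.46e-09 with limma), or 4.34-fold. The inhibitory receptor gene Lilrb4a was 2.30-fold higher (difference 1.20 ± 0.13 SE, adjusted p = 2.52e-08 with limma). Its ranges, 4.93 to 6.0 in M28L mice and 5.89 to 7.25 in P522R mice, met only at their ends and did not overlap within a sex.

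Spp1, which encodes the secreted phosphoprotein osteopontin, and Cst7, which encodes the lysosomal protease inhibitor cystatin F, differed by 1.03 ± 0.19 (SE) and 0.90 ± 0.19 (SE). Spp1 ran from 7.67 to 8.68 in M28L mice and from 8.38 to 10.9 in P522R mice, and the 2 variants overlapped in females. Cst7 ran from 8.41 to 9.98 in M28L mice and from 8.86 to 11.2 in P522R mice, and the variants overlapped in both sexes. The 5xFAD mean of Cst7, 10.27, was close to the P522R mean of 10.20 and above the M28L mean of 9.30. Ccl3, a chemokine gene, was 1.95-fold higher in P522R mice, and its 5xFAD mean of 7.59 was above both the P522R mean of 7.29 and the M28L mean of 6.33. The lipoprotein lipase gene Lpl differed by 0.66 ± 0.09 (SE), with 12 of 12 P522R mice above the M28L mean of their sex. The NADPH oxidase gene Cybb and the growth factor gene Igf1, named here after their values were seen, differed by 0.83 and 0.76 at levels near 5, where few counts stand behind each value.

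**Figure D1:**
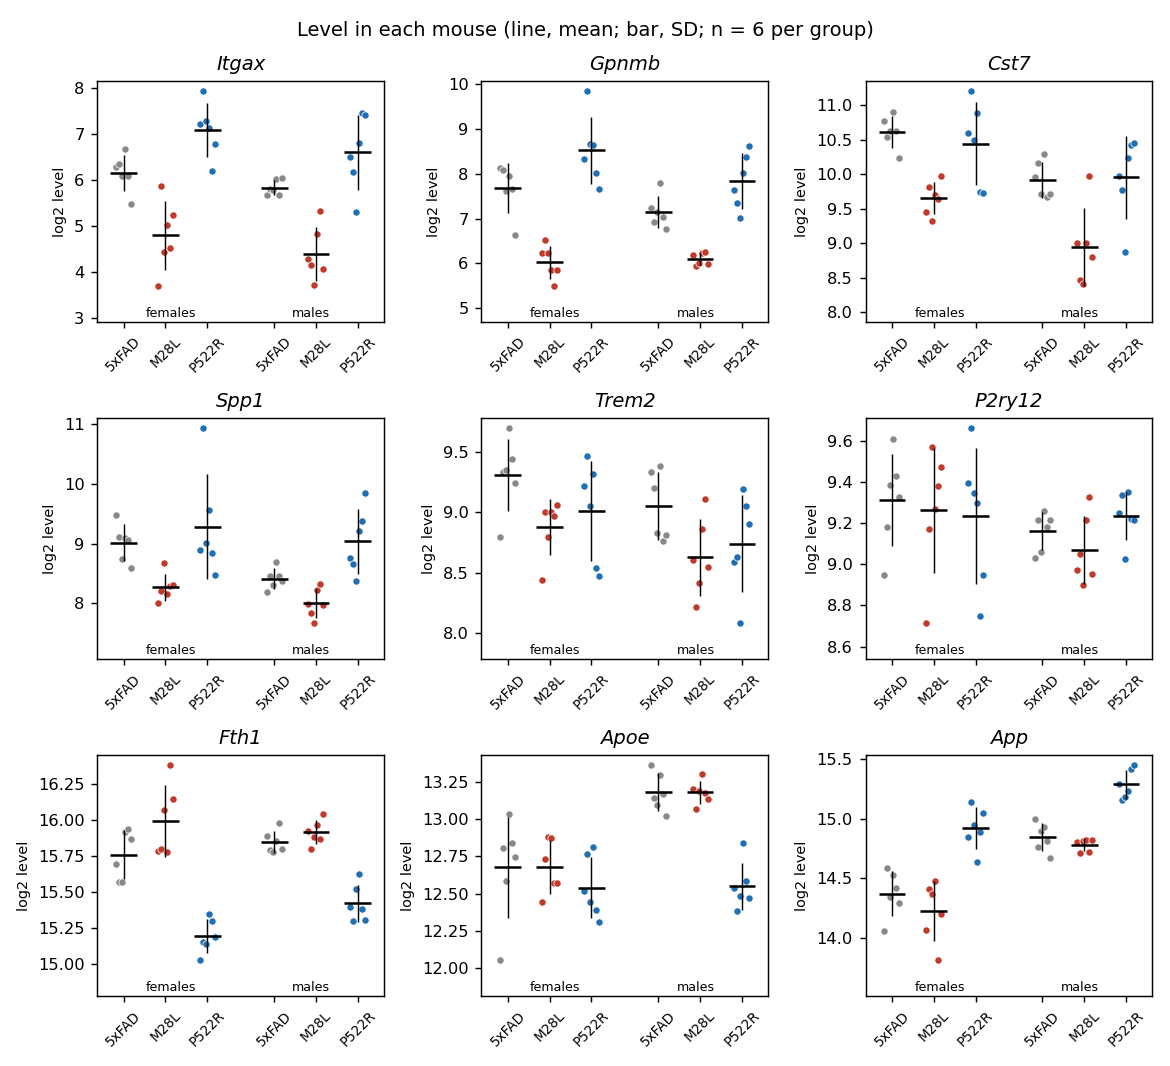
Log2 level of 9 genes in each mouse by genotype and sex, where points are mice, lines are group means and bars are SD (n = 6 per group). Gpnmb and Fth1 separate the 12 P522R mice from the 12 M28L mice in opposite directions, Itgax, Cst7 and Spp1 lie higher in P522R mice, and Trem2 and P2ry12 overlap in all groups.

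The bases just upstream of 3 of these genes and of the lysosomal gene Gaa, taken up below, are printed as the windows of the pair of members furthest apart, Itgax and Gpnmb, and of an example each of the ETS and E-box letters, Cst7 and Gaa, picked by hand. Each run is the 250 bases before the RefSeq start of the gene (GRCm38.p6), 5′ to 3′ on the gene's strand, from chr7:128129300-128129549 for Itgax, chr6:49036268-49036517 for Gpnmb, chr2:150570165-150570414 for Cst7 and chr11:119267713-119267962 for Gaa, all on the plus strand. Capitals mark the AP-1 motif TGANTCA, the ETS motif AGGAAGTG that the myeloid factor PU.1 can bind, and the E-box TCACGTG that TFEB and TFE3, regulators of lysosomal genes, can bind, each searched on both strands. The Gpnmb window holds none of the 3.
Itgax: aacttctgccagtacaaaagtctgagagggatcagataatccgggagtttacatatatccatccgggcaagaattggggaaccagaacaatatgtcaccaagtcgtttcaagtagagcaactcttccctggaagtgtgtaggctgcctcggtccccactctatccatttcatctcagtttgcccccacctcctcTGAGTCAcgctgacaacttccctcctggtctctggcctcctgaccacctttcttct
Gpnmb: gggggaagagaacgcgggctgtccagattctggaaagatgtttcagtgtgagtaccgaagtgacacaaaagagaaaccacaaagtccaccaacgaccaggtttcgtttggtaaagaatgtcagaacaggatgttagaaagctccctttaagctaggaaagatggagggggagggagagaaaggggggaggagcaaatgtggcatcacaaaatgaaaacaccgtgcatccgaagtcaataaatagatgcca
Cst7: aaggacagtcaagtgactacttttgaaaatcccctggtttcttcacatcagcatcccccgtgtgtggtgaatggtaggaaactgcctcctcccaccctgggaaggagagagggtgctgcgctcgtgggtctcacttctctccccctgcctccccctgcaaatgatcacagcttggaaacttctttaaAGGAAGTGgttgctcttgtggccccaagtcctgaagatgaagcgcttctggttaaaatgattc
Gaa: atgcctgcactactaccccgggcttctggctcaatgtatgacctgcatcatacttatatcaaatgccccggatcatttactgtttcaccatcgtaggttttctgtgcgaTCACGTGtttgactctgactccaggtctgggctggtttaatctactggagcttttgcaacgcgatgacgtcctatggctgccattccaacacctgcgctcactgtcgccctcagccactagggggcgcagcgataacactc
Of the 34 disease-associated microglia genes, 28 have a promoter entry. The AP-1 letters stood in 5 of them (17.9%; Itgax, Igf1, Cybb, Cd68 and Trem2) against 7.82% of 27025 genes, and the ETS letters in 3 (10.7%) against 3.62%. Of the 5 genes with the AP-1 letters 4 were higher in P522R mice, and of the 23 without them 14. Of the 3 genes with the ETS letters 2 were higher, and of the 25 without them 16. A match is a description of these letters and not a site of binding.

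Members of the same list that were lower in P522R mice were Fth1, Npc2, Apoe and Serpine2. Fth1, the heavy chain of the iron store ferritin, ran from 15.78 through 15.90 to 16.38 in M28L mice and from 15.02 through 15.30 to 15.63 in P522R mice. The variants did not overlap, and the 5xFAD mean of 15.80 was near that of M28L mice. The difference was -0.65 ± 0.07 (SE; 95% interval -0.78 to -0.51, adjusted p = 9.08e-09 with limma), and it was -0.09 and not called with quantile normalization (adjusted p = 0.171), in which the brightest genes of all mice are set nearly equal. Npc2, which binds cholesterol in the lysosome, was 1.70-fold lower, and no P522R mouse reached the M28L mean of its sex.

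Apoe, the lipid carrier that plaque-associated microglia and astrocytes secrete, was lower in P522R mice by sex. In males M28L mice ran from 13.07 to 13.31 and P522R mice from 12.38 to 12.84, with no overlap and a difference of -0.63 (adjusted p = 2.91e-06 with limma). In females the ranges 12.44 to 12.88 and 12.31 to 12.81 overlapped, and the difference of -0.14 was not called (adjusted p = 0.177 with limma). The interaction was -0.49 (adjusted p = 0.00821 with limma). The 5xFAD means, 12.68 in females and 13.18 in males, were those of M28L mice to the second decimal in each sex.

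The receptor complex itself was not called. Trem2 ran from 8.22 to 9.11 in M28L mice and from 8.08 to 9.46 in P522R mice, with a difference of 0.12 and a 95% interval of -0.13 to 0.38. Tyrobp differed by 0.21 with an interval of -0.06 to 0.48 (adjusted p = 0.159 with limma). For both genes the 5xFAD mean, 9.18 for Trem2 and 11.01 for Tyrobp, was above the means of both variants. The shares of TREM2 and ITAM signalling genes called, 23.5% higher and 17.6% lower, lie below the 38.5% and 24.2% of all genes. In the larger set, which holds all but 2 genes of this list, 45.8% were higher and 16.5% lower. Of 17 measured genes of this list, 4 were higher in P522R mice and 3 lower. Besides Lilrb4a these were the progranulin gene Grn at 0.73 ± 0.12 (SE), the growth factor receptor gene Csf1r at 0.50 ± 0.11 (SE) and the lectin gene Cd33 at 0.37 on the higher side. Csf1r was not called in males. On the lower side the kinase subunits Pik3ca and Pik3cb were each at -0.15, and Pik3r1, the regulatory subunit of phosphoinositide 3-kinase, was 1.66-fold lower at -0.73 ± 0.08 (SE), and the male ranges did not overlap.

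Of 30 measured genes of homeostatic microglia 11 were higher, 3 were lower and 16 were not called. The share higher, 36.7%, was close to the 38.5% of all genes, and the share lower was 10% beside 24.2%. Of the 30 genes 1 lies in the smaller set. In the larger set 45.8% of genes were higher, above the share of this list, and 16.5% lower. The list had a median of 0.16, and after set centring 11 were higher and 5 lower with a median of 0.05. The surface markers P2ry12, Tmem119, Fcrls and Siglech, named after their values were seen, differed by 0.07, 0.10, -0.03 and -0.09 and were not called. P2ry12 ran from 8.71 to 9.57 in M28L mice and from 8.75 to 9.66 in P522R mice. The phagocytic receptor gene Mertk and the fractalkine receptor gene Cx3cr1, likewise named afterwards, were higher at 0.40 and 0.37. Tgfbr2, a receptor for TGF-beta, was the member furthest up at 0.70 ± 0.09 (SE; 0.93 with set-centred values). Aif1, which encodes the microglial marker IBA1, was the furthest down at -0.67 ± 0.10 (SE), with M28L mice at 8.07 to 9.20, P522R mice at 7.70 to 8.38 and the 5xFAD mean at 8.73. Bin1, an endocytic adaptor gene that neurons and oligodendrocytes also express, was lower (difference -0.33), and Rhob was higher by 0.37, mainly in females (0.56 against 0.18 in males).

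Complement genes went both ways. The C4a.b probe reads 2 genes of nearly the same sequence, C4a and C4b, and was 2.47-fold higher in P522R mice at 1.31 ± 0.14 (SE; adjusted p = 1.9e-08 with limma). It ran from 8.98 through 9.76 to 10.56 in M28L mice and from 10.25 through 11.01 to 11.69 in P522R mice, with no overlap within a sex and a 5xFAD mean of 10.17. A probe of the smaller set named C4a was not called (0.27 ± 0.19 SE), and was at 0.50 and called with set-centred values. The anaphylatoxin receptor gene C3ar1 was 1.62-fold higher. C1qb, a chain of the initiator C1q that microglia make, was in contrast 1.52-fold lower at -0.60 ± 0.10 (SE), with 1 of 12 P522R mice above the M28L mean of its sex. C1qc was lower too at -0.29, and C1qa, at -0.23, was not called (adjusted p = 0.0576 with limma). Of 13 measured complement genes 7 were higher (53.8%, beside 38.5% of all genes) and 2 lower (15.4%, beside 24.2%).

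Of 8 antigen presentation genes 5 were higher and 1 lower over both sexes, and none in each sex. The shares over both sexes, 62.5% and 12.5%, stand beside 38.5% and 24.2% of all genes. The invariant chain gene Cd74 was higher by 0.76 ± 0.16 (SE), at 1.09 in females and 0.42 in males, where it was not called. H2.D1, a class I heavy chain, was higher by 0.43, and Tap1 and B2m by 0.38 and 0.27. The 5xFAD mean of Cd74, 8.63, was above the P522R mean of 8.2 and the M28L mean of 7.44. B2m (0.07) and Tap1 (0.18) were no longer called with housekeeping centring, nor was B2m with set centring (0.16). Of 8 interferon response genes 4 were higher (50%) and 2 lower (25%), and none in each sex. Stat2 was at 0.36, without a call in males and with housekeeping centring (0.16), Cxcl10 was at 0.47 and Ifit3 at -0.29. Mx1 and Gbp2, which interferons raise and which were named after their values were seen, lay apart at 0.77 and -0.69.

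Among 35 genes of innate sensing and cytokines 11 were higher and 6 lower, shares of 31.4% and 17.1% that lie below those of all genes (38.5% and 24.2%). Besides Ccl3, the microglial growth factor gene Csf1 was higher by 0.64 ± 0.09 (SE), the endotoxin co-receptor gene Cd14 by 0.78 ± 0.13 (SE) and the neuronal chemokine gene Cx3cl1 by 0.73 ± 0.09 (SE). Cx3cl1 did not overlap between the variants in either sex. Ccl12, a monocyte chemoattractant gene, was the widest on the lower side, with M28L mice at 6.28 to 7.87 and P522R mice at 5.64 to 6.48 (difference -0.92 ± 0.14 SE, adjusted p = 3.51e-06 with limma).

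Lysosomal genes were mostly higher in P522R mice. Of 26 measured members 15 were higher and 4 lower, and in each sex 9 and 1. The shares over both sexes were 57.7% and 15.4%, beside 38.5% and 24.2% of all genes. The median was 0.28, and 0.29 with set-centred values. Gaa, the acid alpha-glucosidase that breaks down glycogen, ran from 10.45 through 11.68 to 12.16 in M28L mice and from 11.64 through 12.21 to 12.68 in P522R mice, with no overlap within a sex. Its difference was 0.66 ± 0.09 (SE; 0.89 with set-centred values, adjusted p = 9.27e-07 with limma), and the 5xFAD mean of 11.54 was that of M28L mice, 11.53. Man2b1, a lysosomal mannosidase, was at 0.59 ± 0.09 (SE) and Atp6v1a, a subunit of the proton pump, at 0.46 ± 0.06 (SE). Npc2, described above, was the member furthest down. The E-box TCACGTG stood in the window of 9 of the 20 lysosomal genes with a promoter entry (45%), against 3.58% of all genes. Of these 9 genes 4 were higher in P522R mice, and of the 11 without it 5.

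In lipid handling, 6 of 12 measured genes were higher and 3 lower, shares of 50% and 25% beside 38.5% and 24.2% of all genes. Lrp1, an endocytic receptor for apolipoprotein E, was 1.73-fold higher at 0.79 ± 0.10 (SE; 1.02 with set-centred values), and the ranges did not overlap within a sex. Sorl1, a sorting receptor for amyloid precursor protein, was 1.51-fold higher at 0.60 ± 0.07 (SE). The cholesterol exporter gene Abca1, named after its value was seen, was lower at -0.26.

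Of 12 measured genes of amyloid precursor processing 5 were higher and 2 lower, shares of 41.7% and 16.7% beside 38.5% and 24.2% of all genes. App ran from 13.81 through 14.60 to 14.82 in M28L mice and from 14.64 through 15.15 to 15.45 in P522R mice, and neither sex overlapped. The difference was 0.60 ± 0.07 (SE; 95% interval 0.46 to 0.73, adjusted p = 2.08e-08 with limma), or 1.52-fold, and 0.49 with set-centred values. The sources used here do not say whether the App probe also reads the human transgene, and the 5xFAD mean was 14.61. Bace1, the beta-secretase, was higher by 0.49 ± 0.06 (SE) and the App relative Aplp2 by 0.45 ± 0.06 (SE). Adam10, an alpha-secretase named after its value was seen, was lower at -0.41 ± 0.07 (SE; -0.17 with set-centred values).

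The pathway that the enzyme feeds held genes with wide differences in both directions. Of 49 measured genes of phosphoinositide, calcium and protein kinase C signalling 23 were higher and 15 lower, and in each sex 14 and 9. The shares over both sexes, 46.9% and 30.6%, stand beside 38.5% and 24.2% of all genes. Of the 49 genes 26 lie in the smaller set. Prkca and Prkcb, 2 conventional protein kinases C that diacylglycerol and calcium activate, were 2.22-fold and 2.04-fold lower in P522R mice. Prkca ran from 9.75 through 10.34 to 10.83 in M28L mice and from 8.61 through 9.10 to 9.86 in P522R mice. The difference was -1.15 ± 0.12 (SE; -0.92 with set-centred values, adjusted p = 1.3e-08 with limma), and the males of the variants did not overlap. Prkcb did not overlap within a sex, at -1.03 ± 0.09 (SE; -0.79 with set-centred values). Both are abundant in cortical neurons. Plcb1, a phospholipase of neurons that acts on the same lipid, was higher by 0.52 ± 0.04 (SE), and the calcium pump gene Atp2b3 by 0.72 ± 0.07 (SE), each without overlap within a sex. On the same lines, the phosphatase gene Inpp5f and the calcium channel gene Cacnb4 were lower at -0.83 and -0.84, and the calcium release channel genes Ryr2 and Itpr3 were both higher at 0.64, all 4 named after their values were seen. Plcg2 itself was not analysed here.

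Among genes called in each sex with a mean level of at least 6 in both variants, the 10 furthest up were Gpnmb, the C4a.b probe, Serpina3n, Spp1, Ccl3, Cst7, Slc12a5, Lrp1, Cd14 and Grn. Slc12a5, the neuronal potassium-chloride cotransporter, was 1.73-fold higher. The 9 reported here of the 10 furthest down were Prkca, Zfp24, Prkcb, Lrrc4, Rdx, Txnl1, Kif3a, Prpf31 and Insr, at -1.15 to -0.90. Zfp24, a zinc finger gene, was at -1.05 ± 0.15 (SE), and Lrrc4, a synaptic adhesion gene, at -1.02 ± 0.10 (SE). Kif3a, a motor of axonal transport, was at -0.91 ± 0.08 (SE), and the insulin receptor gene Insr at -0.90 ± 0.15 (SE). All 9 lie in the smaller set, whose median was below 0, and their set-centred differences were smaller but still called, for example -0.82 for Zfp24, -0.79 for Lrrc4, -0.68 for Kif3a and -0.67 for Insr.

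The 5xFAD mice gave the 2 groups of genes a different reference level. For the 9 lower genes the M28L mean was within -0.07 to 0.23 of the 5xFAD mean, while the P522R mean was -1.21 to -0.82 from it. For the 10 higher genes the M28L mean was -1.35 to -0.06 from the 5xFAD mean and the P522R mean -0.30 to 0.91. In 5 of these 10 the M28L mean was the nearer to 5xFAD. Both distances use the same 5xFAD mice, so they are given as levels and were not tested. On the larger set 5xFAD females had a mean of 1125810 counts, beside 1088008 in M28L females and 1738930 in P522R females. Mouse medians of the smaller set averaged 8.13, 8.24 and 8.04 in 5xFAD, M28L and P522R females. In males they averaged 8.64, 8.73 and 8.46. The part of depth and scaling in these distances was not tested.

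**Figure D2:**
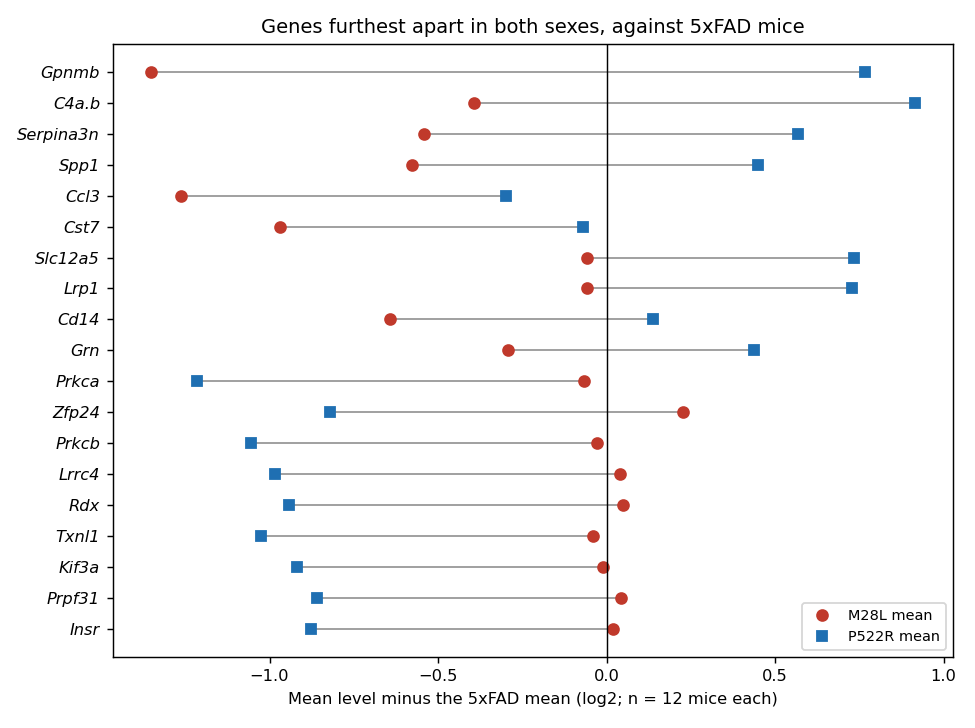
Mean log2 level of M28L mice (circles) and P522R mice (squares) minus the mean of 5xFAD mice, for the 10 genes furthest up and 9 of the 10 furthest down in P522R against M28L mice (n = 12 mice per genotype). The circles of the lower genes sit at -0.07 to 0.23, near the 5xFAD level, while Gpnmb has the circle below and the square above 0, and Cst7 and Ccl3 have both below 0.

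Of 7 measured astrocyte genes 5 were higher and 1 lower, and in each sex 2 and 1. The shares over both sexes were 71.4% and 14.3%, beside 38.5% and 24.2% of all genes. The median was 0.26, but 0.06 in males alone and 0.06 with housekeeping centring. Aqp4, a water channel of astrocyte endfeet, was at 0.36 ± 0.08 (SE), the glutamate transporter gene Slc1a3 at 0.36 ± 0.07 (SE) and Aldh1l1 at 0.35 ± 0.09 (SE). Aldh1l1 was at 0.60 in females and 0.11, not called, in males, and its interaction was called on the deposited scale and under none of the 4 other scalings. With housekeeping centring neither Aldh1l1 (0.15) nor Slc1a3 (0.16) was called. S100b, a calcium-binding protein gene, was lower at -0.52 ± 0.08 (SE). Serpina3n, a protease inhibitor gene raised in reactive astrocytes and oligodendrocytes, was 2.16-fold higher, with M28L mice at 5.48 to 6.77 and P522R mice at 6.27 to 8.28 (1.1 ± 0.17 SE, adjusted p = 3.51e-06 with limma). Of 33 measured reactive astrocyte genes 13 were higher and 3 lower, and in each sex 4 and 0. The share higher, 39.4%, was close to the 38.5% of all genes, and in each sex 12.1% lay below 17.2%. The share lower was 9.1% beside 24.2%. Of the 33 genes 5 lie in the smaller set, and in the larger set 45.8% of genes were higher and 16.5% lower. Stat3 was higher in females by 0.69 and not called in males (0.14).

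All 8 measured genes of oligodendrocyte precursors were higher, with a median of 0.45 (0.35 with set-centred values, where 6 were called). In each sex 4 were higher. The shares, 100% over both sexes and 50% in each sex, stand beside 38.5% and 17.2% of all genes. Of the 8 genes 1 lies in the smaller set, and in the larger set 45.8% of genes were higher over both sexes. Pdgfra, the growth factor receptor that defines these cells, ran from 8.42 to 8.90 in M28L mice and from 8.71 to 9.56 in P522R mice (0.50 ± 0.06 SE), and the extracellular matrix gene Tnr was at 0.61 ± 0.06 (SE). Cspg4, which pericytes also express, differed by 0.96 in females against 0.34 in males (interaction adjusted p = 0.0214 with limma), an interaction not called with median or housekeeping centring or quantile normalization. Gpr17, a receptor of committed precursors, and Olig1, both named after their values were seen, were at 1.18 and 0.81 in females and at 0.30 and -0.15 in males, where neither was called. Housekeeping centring left the list's median at 0.25.

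Of 19 myelin genes 9 were higher and 5 lower, shares of 47.4% and 26.3% that lie near those of all genes. Bcas1, a gene of newly myelinating cells, and Plekhb1 separated the variants completely. Bcas1 ran from 9.76 to 10.39 in M28L mice and from 9.11 to 9.68 in P522R mice (-0.73 ± 0.05 SE, adjusted p = 9.03e-11 with limma). Plekhb1 ran from 11.93 to 12.49 and from 11.34 to 11.91 (-0.69 ± 0.05 SE, adjusted p = 3.76e-11 with limma). Mbp, which encodes myelin basic protein, was lower, at -0.27 in females and -0.69 in males. Ugt8a, an enzyme of myelin galactolipids, was higher at 0.48 ± 0.05 (SE).

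Vessel genes were near 0 as a group, with 4 of 22 higher, 4 lower and a median of 0.04. The shares, 18.2% in each direction, lie below the 38.5% and 24.2% of all genes. The median was 0.23 in females and -0.14 in males, beside 0.12 and 0.06 over all genes. Of the 22 genes 8 had a called interaction, each with the more positive difference in females. Among all genes 20.1% had a called interaction and 14.0% one in this direction. The same held for 8 of 15 genes of the neuron list, 4 of 8 oligodendrocyte precursor genes and 7 of 19 myelin genes. These counts are on the deposited scale, and the direction over all genes turned with median centring and quantile normalization. Flt1, Tie1 and Esam, endothelial genes named after their values were seen, were at 0.86, 0.46 and 0.48 in females and at -0.23, -0.43 and -0.13 in males. Pdgfrb, a pericyte receptor, was higher in both (0.54 and 0.58), and Vegfa was lower at -0.29. Icam1, at -0.52, was not called with set-centred values (-0.29). The summed level of the 22 genes ran from 3693 to 4419 in M28L females and 4135 to 5110 in P522R females, and from 5648 to 5958 in M28L males and 5051 to 5692 in P522R males, and its part in other results was not tested.

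**Figure D3:**
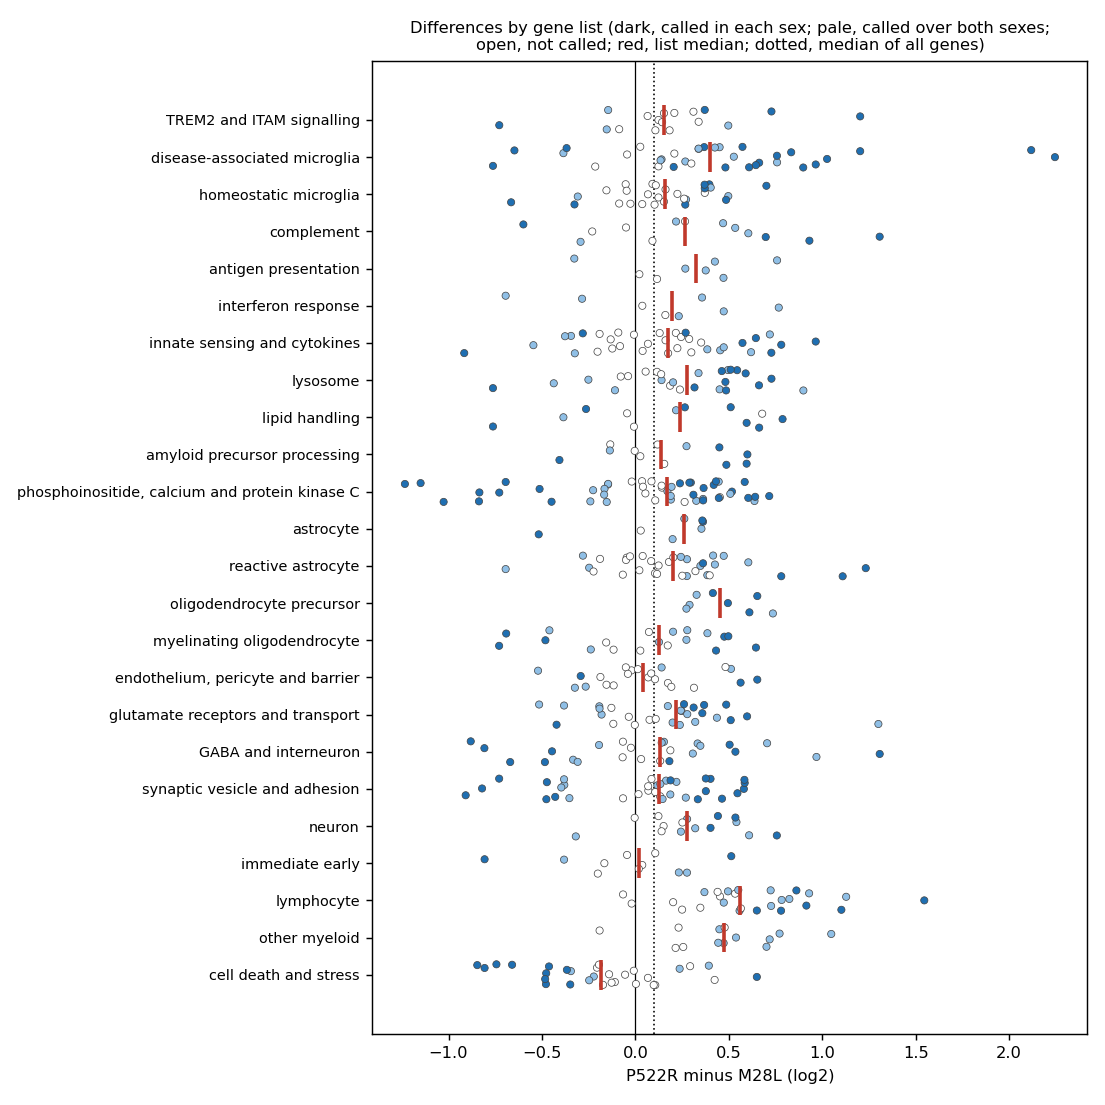
Difference P522R minus M28L (log2) of each measured gene, by gene list, where dark points were called in each sex, pale points over both sexes alone and open points not at all, red bars are list medians and the dotted line is the median of all genes, 0.10. The disease-associated microglia, lysosome and oligodendrocyte precursor lists lie to the right, at medians of 0.40, 0.28 and 0.45. Cell death and stress lies to the left at -0.18, but at 0.03 with set-centred values, which are not drawn.

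Neuronal genes moved in both directions within single pathways. Of 28 glutamate genes 16 were higher and 6 lower, 57.1% and 21.4% beside 38.5% and 24.2% of all genes. The receptor subunit gene Grin2a separated the variants completely, at 8.61 to 9.13 in M28L mice and 9.19 to 9.66 in P522R mice (0.51 ± 0.06 SE). Of the other NMDA receptor genes, Grin1 was higher at 0.60 and Grin2b lower at -0.52, both named after their values were seen. Dlg4, which encodes the postsynaptic scaffold PSD-95, was lower at -0.42 ± 0.06 (SE; -0.19 with set-centred values), whereas its binding partner gene Dlgap1 was higher without overlap (0.55 ± 0.05 SE). Unc13a, which primes synaptic vesicles, was lower at -0.51 in females and -1.13 in males, and Ncam1 and Snap25 were higher at 0.58 and 0.40. The neuron list holds 15 measured genes, among them markers of single transmitter classes such as Chat, Th, Gad1 and Slc17a7. Of the 15 genes 9 were higher (60%) and 1, Map2 at -0.32, was lower (6.7%). Within females 12 were higher and within males 5, and 4 were higher in each sex. The median of the 15 genes was 0.43 in females and 0.05 in males, beside 0.12 and 0.06 over all genes. The summed level of the 15 genes ran from 43087 to 52399 in M28L females and from 58503 to 68658 in P522R females. In males it ran from 64829 to 70234 in M28L mice and from 69448 to 79855 in P522R mice.

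The inhibitory system divided by gene. Of 25 measured GABA and interneuron genes 11 were higher and 8 lower, and in each sex 4 and 5. The shares over both sexes, 44% and 32%, stand beside 38.5% and 24.2% of all genes. Gad1 and Gad2, the enzymes that make GABA, were higher at 0.54 ± 0.04 (SE) and 0.50 ± 0.04 (SE), and Gad2 separated all mice, at 11.42 to 11.78 in M28L and 11.80 to 12.47 in P522R. The interneuron markers Calb2 and Pvalb were lower at -0.88 ± 0.11 (SE) and -0.67 ± 0.09 (SE). Other interneuron markers of the list, Vip, Calb1, Cck, Dlx1 and Dlx2 among them, are not described here. Slc32a1, the vesicular GABA transporter, and the neuropeptide gene Npy, both named after their values were seen, were lower at -0.48 and -0.45 (-0.25 and -0.21 with set-centred values). Of the 6 genes with values given here, Gad1 and Gad2 lie in the larger set and the other 4 in the smaller. All 6 were called in the same direction after set centring. The Calb2 means were 8.29 in M28L, 7.75 in 5xFAD and 7.41 in P522R mice.

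Activity-dependent genes gave no common direction. Egr1 was higher at 0.51 ± 0.11 (SE), while Fos, Arc and Npas4, named after their values were seen, differed by -0.04, -0.17 and 0.11 and were not called. Of 11 measured genes 3 were higher and 2 lower, shares of 27.3% and 18.2% beside 38.5% and 24.2% of all genes. Ptgs2, at 0.28, lost its call with set-centred values (0.17), with housekeeping centring (0.08) and without a sex term (adjusted p = 0.112 with limma), and Homer1, at -0.38, with set-centred values (-0.15).

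Genes of cell death and stress were the list that lay lowest on the deposited scale. Of 30 measured members 13 were lower and 3 higher, and in each sex 10 and 1, with a median of -0.18. The shares over both sexes, 43.3% lower and 10% higher, stand beside 24.2% and 38.5% of all genes. Of these 30, 25 lie in the smaller set, in which 35.8% of genes were lower and 27.7% higher. With set-centred values 11 of the 30 were lower and 8 higher with a median of 0.03, and the vessel list lay lower at -0.01. Sod2, the mitochondrial superoxide dismutase, ran from 10.86 to 11.66 in M28L mice and from 9.98 to 11.19 in P522R mice, with no overlap within a sex (-0.85 ± 0.10 SE; -0.61 with set-centred values). Ddit3, which encodes the stress factor CHOP, was at -0.74 ± 0.10 (SE), the cell cycle inhibitor gene Cdkn1a at -0.81 ± 0.13 (SE) and Sod1 at -0.48 ± 0.06 (SE), and these 3 were also lower with set-centred values.

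Markers of lymphocytes and other myeloid cells were higher but sparse. Of 26 lymphocyte genes 17 were higher and 0 lower with a median of 0.56, and 24 of them had a mean below 20 counts. Over all 115 genes below 20 counts 62.6% were called, with 61.7% higher and 0.87% lower and a median of 0.63, while the 1151 genes above had a median of 0.07. For the 100 genes with the fewest counts the median was 4.83 counts in M28L females against 13.8 in P522R females, and 11.2 against 14.3 in males. The lymphocyte list's share, 65.4%, thus lies near that of other dim genes. Cd4, a lymphocyte gene above 20 counts that microglia and other myeloid cells can also express, was at 0.37, and the other, Cd6, was not called (0.20). The summed level of the list ran from 338 to 415 in M28L females and 437 to 594 in P522R females, and from 495 to 569 and 617 to 867 in males. Of 13 genes of other myeloid cells 8 were higher and 0 lower, none of them in each sex, and 9 had a mean below 20 counts. The share higher, 61.5%, is above the 38.5% of all genes and near the 61.7% of genes below 20 counts. The perivascular macrophage gene Cd163 was at 0.54 (0.34 and not called with housekeeping centring). The part of depth and of these cells in the other results was not tested.

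**Figure D4:**
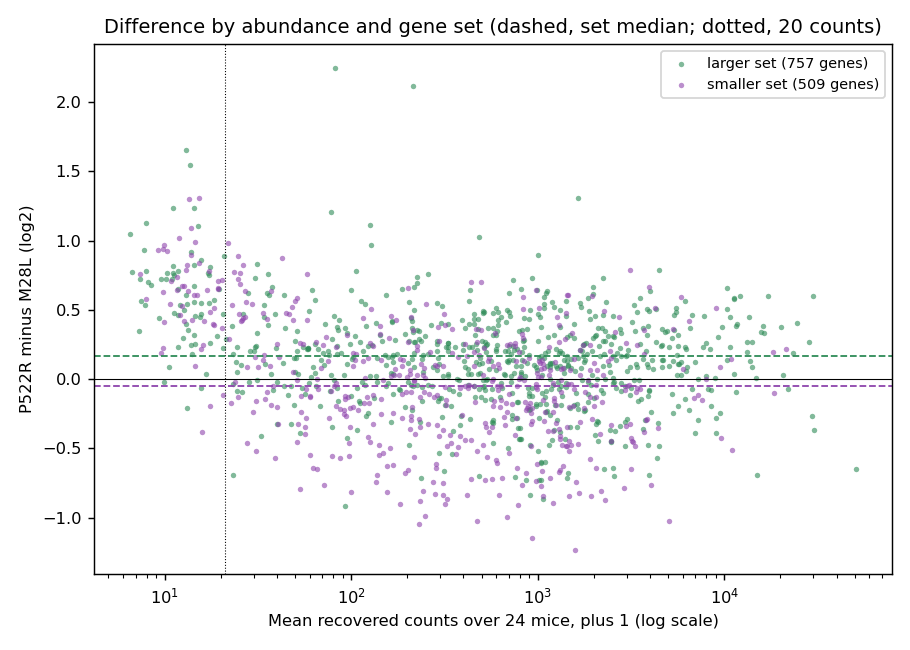
Difference P522R minus M28L (log2) of each gene against its mean recovered counts over the 24 mice plus 1 (log scale), coloured by gene set, where dashed lines are the set medians (0.17 and -0.05) and the dotted line is at 20 counts. Genes left of the dotted line sit mostly above 0 and most of the widest negative differences belong to the smaller set.

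The difference between the variants was not equal in the sexes. Within females 748 genes were called (59.1%), 472 of them higher (37.3%), and within males 610 (48.2%), 321 of them higher (25.4%). The test of the difference itself, the interaction of variant and sex, called 254 genes (20.1%). The difference was greater, that is more positive, in females for 177 of them (14.0%) and in males for 77 (6.08%). With set-centred values 231 were called (18.2%) and 119 were greater in females (9.4%). The balance turned with median centring, where 147 of 242 were greater in males, and with quantile normalization, where 133 of 245 were, so no direction over genes is read from it. M28L females had fewer counts than the other 3 groups, and the part of depth in the interaction was not tested.

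Rnf10, a RING finger gene, had the smallest interaction p. M28L females ran from 10.06 to 10.51 and P522R females from 10.38 to 10.71, while M28L males ran from 11.29 to 11.45 and P522R males from 10.58 to 10.79. P522R was thus higher in females (0.24) and lower in males (-0.69), an interaction of -0.93 (adjusted p = 4.6e-07 with limma). Ptpn11, the phosphatase SHP2, differed by 0.43 in females against -0.14 in males, and Tln2, a talin of focal adhesions, at 0.27 and -0.38. Atcay and Cadm3, both neuronal genes, were at -0.26 and -0.07 in females and at -1.05 and -0.72 in males. For Rnf10 the 5xFAD means were 10.27 in females and 11.29 in males, near those of M28L mice. Of the microglial genes described above, Grn differed by 1.08 in females and 0.38 in males (interaction adjusted p = 0.0168 with limma), while Itgax, Gpnmb, Cst7 and Spp1 had no called interaction.

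**Figure D5:**
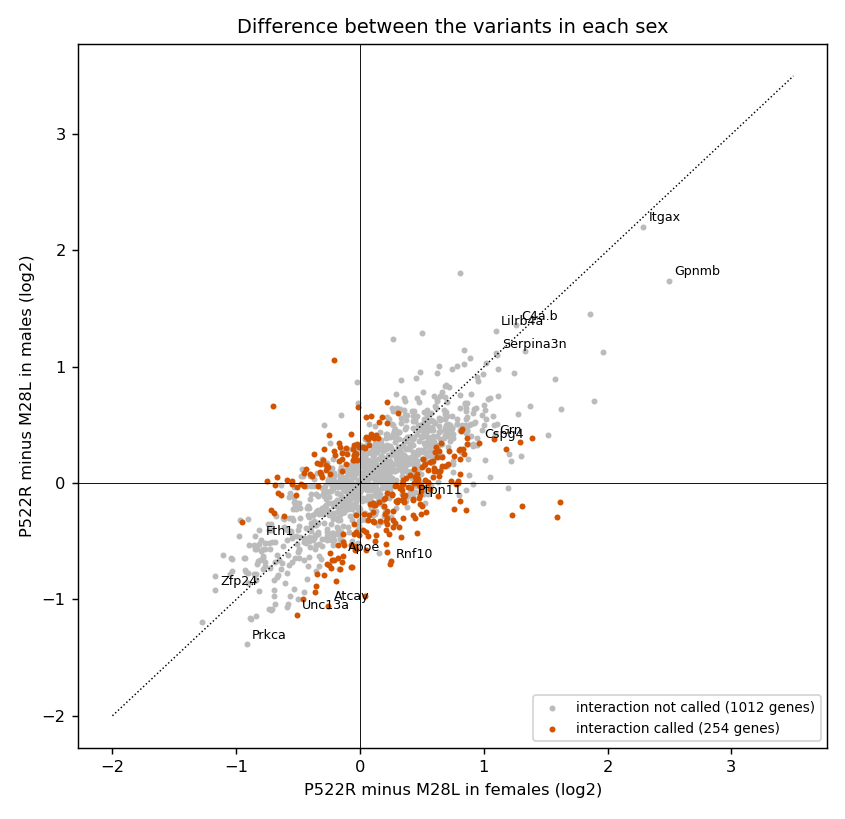
Difference P522R minus M28L (log2) in females against males for each gene, where orange points are the 254 genes with a called interaction, grey points the other genes and the dotted line is equality. Itgax and Gpnmb lie far up in both sexes, Rnf10 lies higher in females and lower in males, and Prkca lies low in both.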

How the data were processed

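Per the labels' protocols, total RNA of cortex was extracted with a PureLink kit and assayed by NanoString's usual procedure, and each mouse has a record for a Glial and one for a Neuropathology panel. The authors deposited 1 table of log2 values per mouse and gene; the sources used here do not give its normalization. Of 1517 rows, 251 without a gene were left out. On the linear scale 100% of values were whole multiples, within 0.05 counts, of 1 of 2 steps per mouse, which gave back counts (237563 to 1957325 per mouse and panel) and the 2 gene sets. Counts served for depth alone, and their number limits precision. The sources do not say which set is which panel.

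Differences were fitted with limma 3.58.1 (R 4.3.3; lmFit, eBayes with trend) on 24 mice with variant and sex; effects within each sex and the interaction came from a model with 4 group means. Tests were two-sided, with p-values adjusted by Benjamini-Hochberg over 1266 genes, and no pseudocount was added. The fit was tested on simulated data. Named genes were Trem2, Tyrobp, Apoe and App, the 10 widest differences in each direction called in each sex at a mean level of at least 6, up to 4 members per list with the smallest p at a level of at least 5, and the 5 smallest interaction p; all other genes were named after their values were seen. Mice and gene lists were chosen with earlier results of these data known. Some genes taken by this rule are not reported here. Each mouse is a separate animal by its number, apart from the pair numbered 14. Alternatives were other scalings, filters, variance models, subsets of M28L mice, the index number as a block, and fits without each mouse; the 2 filters at 50 counts were chosen after seeing the data.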

Additional observations from a re-analysis of the deposited data

Results flagged for a closer look

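A mouse stood apart from the other 5 of its group, by Dixon's criterion at 95%, in 19 of 424 combinations of a named gene and a group; chance gives about 1 in 20. In M28L females Atp6v1a was lowest at 11.75, Cx3cl1 was lowest at 9.56, Pdgfrb was lowest at 3.88. In P522R males C3ar1 was lowest at 7.24, Cx3cl1 was lowest at 11.37, Map2 was highest at 12.28. The same group had Snap25 highest at 15.03, Tgfbr2 lowest at 8.66. In M28L males Ccl12 was highest at 7.87, Ddit3 was highest at 8.79, Gad2 was lowest at 11.58. The same group had H2.D1 lowest at 8.78, Lrp1 highest at 11.61, Ncam1 lowest at 11.45. In P522R females Ccl3 was lowest at 6.77, Map2 was lowest at 11.47, Pdgfrb was lowest at 4.37. The same group had Slc8a1 highest at 12.21, Tbp lowest at 7.76. 

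The difference between the variants itself differed between the sexes, as a called interaction in limma, for 16 named genes. The interaction, the difference in males minus that in females, was -0.49 for Aldh1l1, -0.49 for Apoe, -0.80 for Atcay, -0.65 for Cadm3, -0.62 for Cspg4, -0.35 for Dlg4, -0.70 for Grn, -0.37 for Map2. It was -0.43 for Mbp, -0.57 for Ptpn11, -0.38 for Rhob, -0.93 for Rnf10, -0.54 for Stat3, -0.65 for Tln2, -0.62 for Unc13a. Of these 16 genes, Slc8a1, a sodium-calcium exchanger gene, was the exception with a positive interaction, at 0.30. The sign does not tell in which sex the difference was larger in size. On other scalings Aldh1l1 was called under none of the 4 and Cspg4, Dlg4 and Map2 under some but not all, and Rhob and Slc8a1 were not called with housekeeping centring. Within the sexes Map2 was at -0.13 in females and -0.50 in males, Mbp at -0.27 and -0.69, and Stat3 at 0.69 and 0.14.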

How the results depend on the processing

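The 795 called genes became 590 to 856 under the alternatives other than leaving out a mouse, and 764 to 808 on leaving out each of the 24 mice in turn. The ranges on leaving out a mouse were 701 to 776 in females, 535 to 637 in males and 215 to 321 for the interaction. The interaction fell to 67 genes with housekeeping centring, of which 67 were among the 254, and to 62 with the M28L mice of index 7 to 9 alone, against 259 with those of index 1 to 3 alone. The cause was not tested in either case. Set centring gave 799 called genes, of which 613 were among the 795. With the index number of the labels as a replicate block 590 genes were called (338 higher), 581 of them among the 795. The labels do not say what that number marks. The deviations of the 6 pairs of mice with the same index and sex correlated at -0.21 to 0.29, with 1 of the 6 correlating best with its own number, so no pairing was assumed. The share of higher genes moved most with scaling: 447 of 792 with median centring, 406 of 749 with quantile normalization, 203 of 698 with housekeeping centring. Without a sex term 619 were called, and with at least 50 counts in both variants 675 of 1030 genes.

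Of 106 genes taken by the naming rule 97 were called, all 97 of which kept call and direction in every fit without a mouse, 80 under the 4 scalings and 77 under all 16 alternatives. Housekeeping centring reversed Pgk1, itself a housekeeping gene, to -0.0028 and Rhob in males to -0.030, neither then called. Few counts limit the dim genes: a value near 5 counts moves in steps, and M28L females, the shallowest group, limit their comparison most.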
